A study of Mus musculus with 6 samples.

Results

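Bone morphogenetic proteins (BMPs) are secreted signals that a cell can read only if it carries their receptors. The 9 genes described here were chosen by their symbols, with no measured value in the rule, and are 9 of the 31053 genes in the files. Earlier results of these data were known when they were chosen. The counts of these genes called below therefore describe them and give no independent support. They are the type 1 receptors Bmpr1a, Acvr1 and Acvrl1, the type 2 receptor Bmpr2, the co-receptor Eng, the secreted antagonist Chrdl1, and the genes Smad6, Id1 and Id3, which many cells switch on when the pathway is active. The question was which cells at the border of the cerebral cortex hold the transcripts needed to answer BMP.

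The study took single cells from wild-type C57BL6 mice at the meninges, the layers of tissue between brain and skull. Cortical surface (CSA) libraries 1 to 4, labelled as brain tissue, came from the surface of the cortex with its inner meningeal layer, the leptomeninges. Bone-associated (BA) libraries 1 and 2, labelled as dura and skull, came from the inner face of the skull with the outer layer, the dura. No transgene or treatment is stated, and all mice were adults of either sex per the study's methods. Each library pooled several animals, so that the library was the replicate. The p-values covered only the spread between these libraries, or between class sums within them, and not that between animals.

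After filtering, 8680 cells were kept, 5272 from CSA and 3408 from BA libraries, of 17560 barcodes. Libraries held 8408685 to 56169736 unique molecular identifiers (UMIs, each standing for 1 captured transcript), and any pair of libraries shared at most 9 barcodes. CSA libraries 3 and 4 stood apart, because hemoglobin transcripts took 84.6% and 71.9% of their UMIs, against at most 0.520% in the other libraries. Hemoglobin genes were therefore left out of each total. The values of those libraries are given beside the others for many results, and elsewhere they enter a CSA range or mean. Cells were clustered without the 9 genes, and a cluster was named after the markers that led it. The named classes included mesenchymal-like cells, which build the connective layers, endothelial-like cells, which line the vessels, and pericyte-like and vascular smooth muscle (VSMC)-like cells, which wrap them. Border macrophage-like and microglia-like cells are named after the resident macrophages outside and inside the brain tissue. A further class was led by Ccl19 and Colec11. The cells left unnamed made up 15.52% of those kept. Among them was a CSA cluster of 303 cells led by H2-Eb1, H2-Aa and H2-Ab1, with fewer than 3 leading markers of any class. Whether these are macrophages was not tested, so the macrophage values below cover the named classes only. CPM is the gene's UMIs scaled to a common total for each class and library. The summed level of the 11 endothelial markers that named the class was 18638 to 19887 CPM in CSA endothelial-like cells, 331 to 385 CPM in CSA border macrophage-like cells, 449 to 1402 CPM in pericyte-like cells and at most 57.0 CPM in microglia-like cells.

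A BMP ligand brings type 1 and type 2 receptors together on the cell membrane, and the type 1 receptor then phosphorylates SMAD1, SMAD5 and SMAD9, which enter the nucleus with SMAD4 and switch on target genes. Bmpr1a encodes ALK3, the broadly used receptor for BMP2 and BMP4. Acvrl1 encodes ALK1, the endothelial receptor for BMP9 and BMP10, and Eng encodes endoglin, which presents these ligands to it. Id1 and Id3 encode proteins that block basic helix-loop-helix transcription factors and are classic direct targets, Smad6 encodes an inhibitor of the pathway that the pathway itself induces, and Chrdl1 encodes a secreted protein that binds BMPs and keeps them from the receptors.

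The sequences upstream of Eng and Smad6 are shown because both genes differed between kinds of vessel and their windows overlapped no annotated transcript of the same gene. Overlap with transcripts of other genes was not checked. They are the 250 bases before the annotated start in RefSeq on GRCm38, 5′ to 3′ on the gene's strand. Capitals mark matches on either strand to GGCGCC or GTCTG, the letters of BMP-responsive and SMAD-binding elements.
Eng, chr2:32646345-32646594, plus strand: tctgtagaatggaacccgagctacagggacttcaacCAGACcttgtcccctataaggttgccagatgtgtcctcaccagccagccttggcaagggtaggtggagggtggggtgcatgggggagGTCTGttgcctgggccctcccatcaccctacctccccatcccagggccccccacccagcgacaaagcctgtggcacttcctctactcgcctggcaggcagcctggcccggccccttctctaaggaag
Smad6, chr9:64022060-64022309, minus strand: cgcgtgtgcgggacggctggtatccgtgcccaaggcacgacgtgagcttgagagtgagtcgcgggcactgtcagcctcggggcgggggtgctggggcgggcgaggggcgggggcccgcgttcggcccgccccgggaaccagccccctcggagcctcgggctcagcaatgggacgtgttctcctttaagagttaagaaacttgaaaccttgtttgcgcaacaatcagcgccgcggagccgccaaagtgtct

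The Eng window held 2 matches to GTCTG and its reverse complement and 4 CpG dinucleotides at a GC content of 62.4%. The Smad6 window held no match to either motif, 27 CpG dinucleotides and a GC content of 66.8%. Of 32851 such windows, 42.2% held GTCTG and 9.59% held GGCGCC, so that a match to the shorter motif was common. RefSeq windows were matched for 6 of the 9 genes. Those of Bmpr1a, Acvr1, Bmpr2 and Id3 overlapped an annotated transcript of the same gene and are not shown, and Id1, Acvrl1 and Chrdl1 had no window.

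Endothelial-like cells held the highest levels of Acvrl1, Bmpr2, Eng and Id1 in both preparations, and almost no Bmpr1a. For each of these 4 genes the lowest endothelial-like library lay above every library sum of every other named class with at least 10 cells, 14 classes with 41 library sums in CSA and 12 classes with 24 sums in BA. The heat map of mean CPM shows the type 1 receptors by class. VSMC-like, mesenchymal-like, pericyte-like and Ccl19-led cells had higher mean levels of Bmpr1a and lower ones of Acvrl1 than endothelial-like cells, and Id3 was read in all of them. Both of these type 1 receptors were read in pericyte-like and Ccl19-led cells. The 11 endothelial markers summed to 449 to 1402 CPM in the former and 281 to 550 CPM in the latter. Their part in the Acvrl1 values was not tested.

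**Figure D1:**
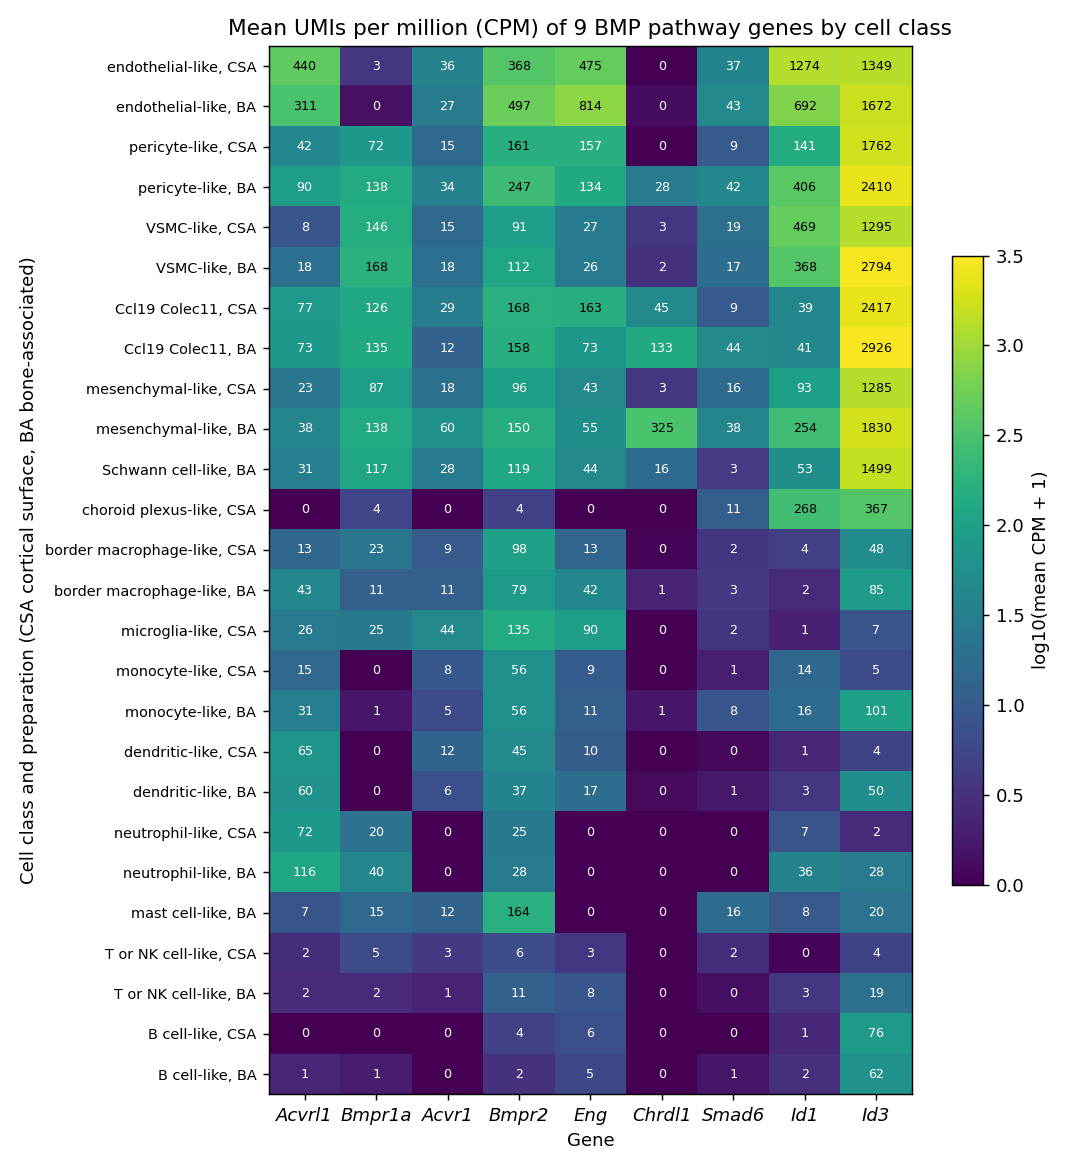
Mean level (CPM, colour on a log scale) of each of the 9 genes (columns) in each named class of the CSA and BA preparations with at least 2 libraries (rows). Acvrl1, Eng and Id1 are highest in the endothelial-like rows, where Bmpr1a is near 0, and Chrdl1 is highest in BA mesenchymal-like cells.

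Acvrl1 (15:101128522-101145336, plus strand; all gene positions are on GRCm38) read 411, 492, 439 and 416 CPM in endothelial-like cells of CSA libraries 1 to 4, and 329 and 294 CPM in BA libraries 1 and 2. The next highest sums belonged to neutrophil-like cells, at 106 CPM in CSA library 3 and 140 CPM in BA library 2, the latter from 11 of 63 cells. Dendritic-like cells held 55.4 to 78.8 CPM in CSA and 66.3 and 54.7 CPM in BA libraries. Of these cells, 45.3% in CSA and 53.6% in BA had an Acvrl1 UMI. Pericyte-like cells held 24.7 to 51.9 CPM in CSA and 71.8 to 108 CPM in BA libraries, and Ccl19-led cells 52.4 to 105 CPM over all 6. Mesenchymal-like cells held 15.4 to 32.6 CPM in CSA and 33.9 and 41.6 CPM in BA. No library of another class reached the endothelial-like range. T or NK-like cells of the CSA libraries, a reference for stray RNA, read 1.91 ± 2.30 CPM (SD, n = 4).

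Unlike Acvrl1, Bmpr1a (14:34410734-34503341, minus strand) was near 0 in endothelial-like cells. In endothelial-like cells it read 7.996, 2.37, 0 and 0 CPM in the CSA libraries and 0.586 and 0.298 CPM in the BA libraries. VSMC-like cells stood highest, at 153 and 138 CPM in CSA and 192 and 145 CPM in BA libraries. CSA libraries 3 and 4 held no VSMC-like cells, so those values and every test on that class rest on CSA libraries 1 and 2 and the BA libraries. The VSMC-like ranges overlapped those of BA mesenchymal-like cells at 171 and 104 CPM, of BA pericyte-like cells at 180 and 95.7 CPM and of the Ccl19-led cells. They also overlapped that of the 46 BA Schwann cell-like cells, at 76.5 to 157 CPM. In BA libraries 1 and 2 those Schwann cell-like cells read 193 and 44.6 CPM of Bmpr2 and 894 and 2104 CPM of Id3. CSA mesenchymal-like cells read 84.9, 82.0, 63.3 and 117 CPM, and CSA pericyte-like cells 56.2 to 84.1 CPM, so that every mural and mesenchymal-like library lay above every endothelial-like one. In the summed BA counts, VSMC-like cells held 426 times the endothelial-like Bmpr1a level, with a 95% interval of 117 to 3523 that covers counting error only.

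Acvr1 (2:58388644-58567157, minus strand), which encodes the type 1 receptor ALK2, was read at lower levels and in more classes. BA mesenchymal-like cells held 71.6 and 48.1 CPM, above microglia-like cells at 46.7, 47.0, 43.8 and 36.6 CPM, which were the next in order. Endothelial-like cells held 59.2, 40.9, 16.9 and 26.2 CPM in CSA and 28.7 and 25.3 CPM in BA libraries, overlapping microglia-like cells. Border macrophage-like cells held 2.9 to 14.99 CPM in CSA libraries, below every microglia-like library.

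Bmpr2 (1:59763400-59879014, plus strand), the type 2 receptor that pairs with all of these, was read most widely. Endothelial-like cells held 417, 331, 400 and 323 CPM in CSA and 606 and 389 CPM in BA libraries. The next highest sums were 243 CPM in Ccl19-led cells of CSA library 3 and 297 CPM in pericyte-like cells of BA library 1. Resident macrophages held it as well, with 98.5 ± 17.2 CPM in border macrophage-like cells and 135 ± 24.3 CPM in microglia-like cells of the CSA libraries (SD, n = 4 each). At an equal depth of 1500 UMIs a cell, 13.4% of border macrophage-like and 16.3% of microglia-like cells had a Bmpr2 UMI (45.3% and 50% without thinning). In T or NK-like cells, which read 5.66 ± 4.58 CPM (SD, n = 4), the thinned share was 0.871%. The macrophage shares were above that of T or NK-like cells. The 11 endothelial markers summed to 331 to 385 CPM in CSA border macrophage-like cells. They summed to 29.6 to 57.0 CPM in microglia-like and 48.2 to 72.7 CPM in CSA T or NK-like cells. The part of stray RNA in the Bmpr2 shares was not tested.

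Eng (2:32646595-32682669, plus strand) read 518, 572, 447 and 363 CPM in CSA and 761 and 867 CPM in BA endothelial-like cells. The highest sum outside them was 200 CPM in Ccl19-led cells of CSA library 2. Pericyte-like cells held 137 to 178 CPM in CSA and 125 and 144 CPM in BA libraries, and microglia-like cells 77.0 to 107 CPM. Mesenchymal-like cells held only 30.9 to 64.0 CPM over all 6 libraries.

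**Figure D2:**
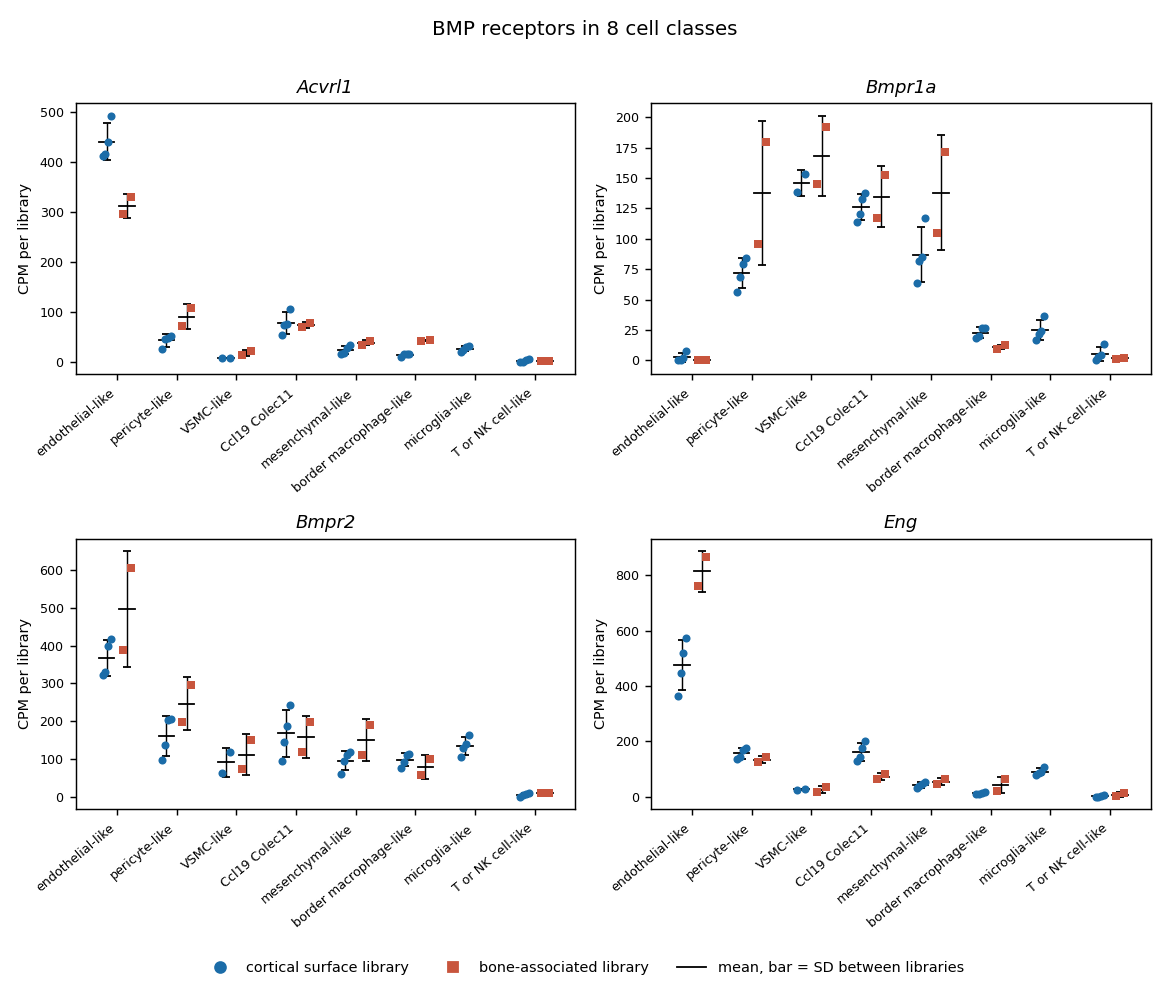
Level (CPM) of Acvrl1, Bmpr1a, Bmpr2 and Eng in 8 classes of each preparation, with a point for each library and the mean with its SD over libraries. Endothelial-like points lie above all others for Acvrl1, Bmpr2 and Eng, and at 0 to 7.996 CPM for Bmpr1a.

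Each cell was also asked whether it held UMIs of a type 1 receptor and of Bmpr2 together, at 1500 UMIs a cell. This was so in 19.5% of CSA endothelial-like cells (95% exact binomial interval 16.2 to 23.2%) and 16.2% of those from BA libraries. The share was 4.71% in CSA and 5.41% in BA Ccl19-led cells, 3.94% and 3.40% in VSMC-like cells, and 2.51% and 3.95% in pericyte-like cells. Mesenchymal-like cells gave 0.758% in CSA and 3.24% in BA libraries, CSA microglia-like cells 1.95% and CSA border macrophage-like cells 0.467%. No T or NK-like cell had both at this depth. Without thinning the share was 64.2% in CSA endothelial-like cells and 25.3% in CSA mesenchymal-like cells, so that the thinned shares depend on depth. The part of stray RNA in them was not tested. At 1500 UMIs, 34.5% of CSA and 28.8% of BA Ccl19-led cells had a type 1 receptor, and 18.0% and 20.7% had Bmpr2. Whether cells held both more often than such separate shares give was not tested. The intervals cover counting error, not the spread between mice.

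The response genes followed different patterns from each other. Id1 (2:152736251-152737410, plus strand) read 1199, 1568, 1207 and 1120 CPM in CSA and 710 and 675 CPM in BA endothelial-like cells. VSMC-like cells came next in CSA, at 349 and 589 CPM, and pericyte-like cells in BA libraries, at 288 and 524 CPM. Mesenchymal-like cells held 37.0, 67.7, 31.7 and 235 CPM in CSA and 213 and 296 CPM in BA libraries, where CSA library 4 lay inside the BA range. Choroid plexus-like cells of CSA libraries 3 and 4 held 268 to 269 CPM of Id1 and 360 to 375 CPM of Id3. Their receptor levels were low, with Bmpr1a at 3.57 to 5.16 CPM, Bmpr2 at 3.57 to 4.13 CPM and Acvr1 and Acvrl1 at 0 CPM. In border macrophage-like cells Id1 read 3.54 ± 2.995 CPM and in microglia-like cells 1.11 ± 1.72 CPM (SD, n = 4 each). At 1500 UMIs a cell, 0.311% of border macrophage-like cells and no microglia-like cell had an Id1 UMI, against 0.174% of T or NK-like cells. By CPM, T or NK-like cells of the CSA libraries read 0, 0, 0 and 0.505, and those of the BA libraries 2.70 and 2.38, while border macrophage-like cells of the BA libraries read 0 and 3.27. The named macrophage classes thus held Bmpr2 transcripts and few Id1 UMIs, 26 in all in CSA border macrophage-like and 6 in microglia-like cells. A border macrophage-like cluster led by Ccl7 and Ccl2 held 23 of the 26. Its 323 cells were split as 137, 172, 4 and 10 over CSA libraries 1 to 4. Another cluster of 200 cells, led by Ccl8 with a median of 1852.5 UMIs, came mostly from libraries 3 and 4. The highest CSA library read 6.30 CPM of Id1 in border macrophage-like and 3.62 CPM in microglia-like cells.

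Id3 (4:136143497-136145755, plus strand) was high in all stromal and vascular classes. Ccl19-led cells held 2655, 3050, 1755 and 2210 CPM in CSA and 2116 and 3737 CPM in BA libraries, and pericyte-like cells 1162 to 2032 CPM in CSA and 1968 and 2851 CPM in BA. Endothelial-like cells at 946 to 1831 CPM and mesenchymal-like cells at 929 to 1703 CPM overlapped in CSA libraries. Border macrophage-like cells of CSA libraries 1 to 4 read 36.1, 90.4, 55.0 and 11.4 CPM, and the summed level of 8 mesenchymal markers in the same cells was 107, 412, 325 and 73.0 CPM. Within the CSA libraries the markers were in the same order as Id3. Border macrophage-like cells of BA libraries 1 and 2 read 77.2 and 92.3 CPM of Id3, with the markers at 121 and 223 CPM. These Id3 values lay above that of CSA library 3, where the markers were higher. The part of the markers' stray RNA in the Id3 values was not tested. Of the 370 Id3 UMIs in CSA border macrophage-like cells, 313 were in the cluster led by Ccl7 and Ccl2.

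Smad6 (9:63953076-64022059, minus strand) read 25.3 to 49.6 CPM in CSA and 41.6 and 45.3 CPM in BA endothelial-like cells. Mesenchymal-like cells overlapped these at 0 to 26.4 CPM in CSA and 32.0 and 44.4 CPM in BA libraries, as did BA pericyte-like cells at 44.9 and 39.9 CPM. Smad6 was therefore not set apart in the endothelial class as a whole, although it differed between kinds of vessel, described further on.

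Chrdl1 (X:143285674-143394262, minus strand) was read mainly in BA mesenchymal-like cells, in Ccl19-led cells and in the few astrocyte-like cells. BA pericyte-like cells had 9 UMIs in 2 of 77 cells. BA mesenchymal-like cells held 428 and 223 CPM, the highest of any class, with UMIs in 179 of 281 cells (63.7%). CSA mesenchymal-like cells held 0, 0, 10.6 and 0 CPM, from 2 UMIs in 1 of 277 cells. Ccl19-led cells held it on both sides, at 59.0, 36.8, 65.7 and 17.2 CPM in CSA and 191 and 74.5 CPM in BA libraries. None of 760 microglia-like cells and none of 551 CSA endothelial-like cells had a UMI, which at 3 counts of the total allows shares of cells with a UMI of up to 0.395% and 0.544% at this depth. Within the BA mesenchymal-like cells, a cluster of 190 cells led by Comp and Matn4 held 322 CPM, with UMIs in 80.5% of its cells. A cluster of 91 cells led by Apod and Dcn held 67.7 CPM, with UMIs in 28.6%.

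Astrocyte-like cells numbered 17 in CSA libraries and reached 10 cells in no library, so that they enter neither the class levels nor the tests. Their 10 leading genes, with Slc1a2 and Aldoc first, did not include Myoc or Gfap, the study's markers of border astrocytes. They are therefore not named as the astrocytes that line the leptomeninges. Chrdl1 UMIs were found in 8 of the 17 (47.1%, with an exact 95% interval from 23.0%). Bmpr1a UMIs were found in 7, Bmpr2 in 8, Acvr1 in 4, Acvrl1 in 1, Id1 in 5 and Id3 in 13 of these cells. None had a UMI of Eng or Smad6.

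**Figure D3:**
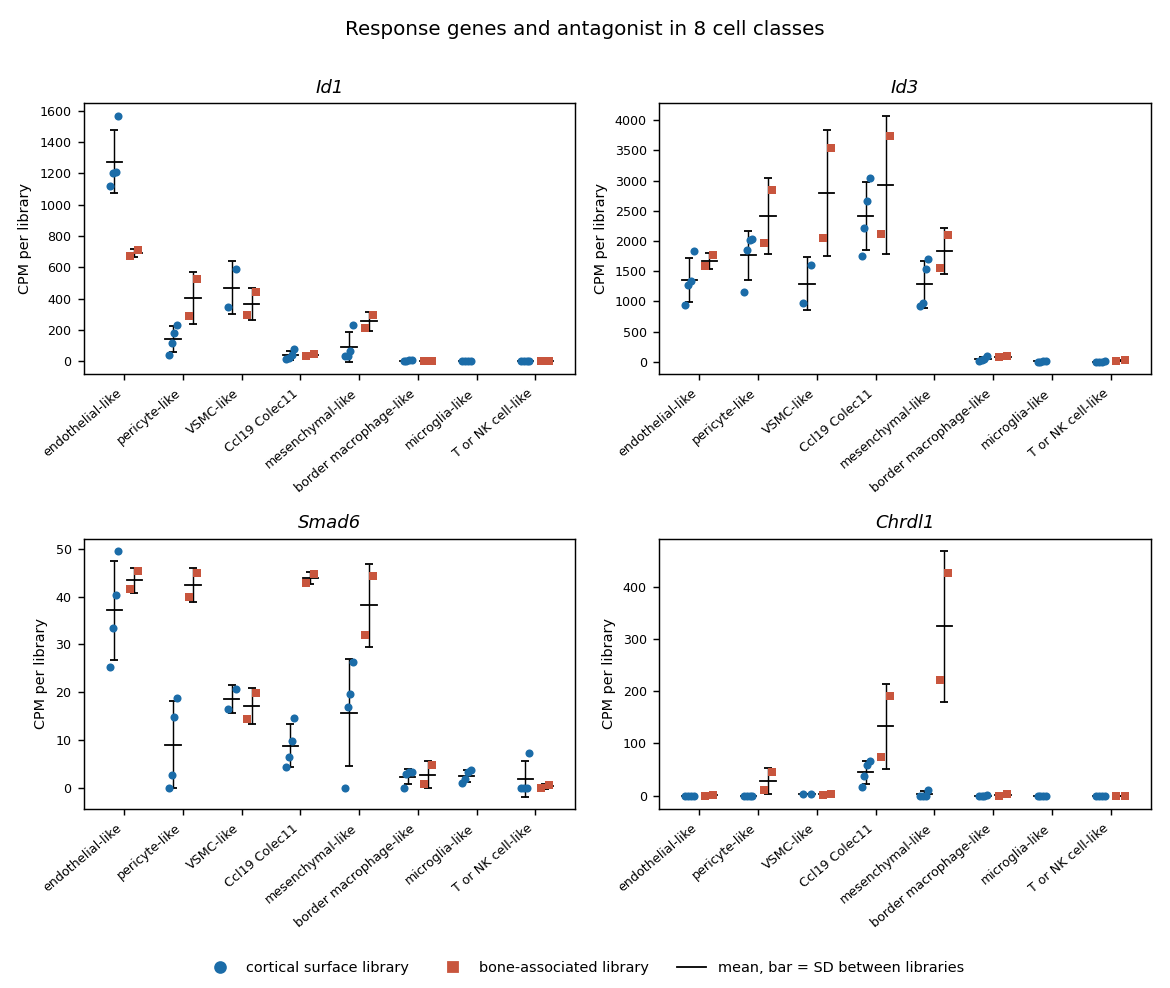
Level (CPM) of Id1, Id3, Smad6 and Chrdl1 in 8 classes of each preparation, with a point for each library and the mean with its SD over libraries. Id1 points are highest in endothelial-like cells, Id3 is high in all stromal and vascular classes, and Chrdl1 reaches 428 CPM in BA mesenchymal-like cells.

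Endothelial-like cells were tested against the mean of the other classes on summed counts, with edgeR's quasi-likelihood test and the library as a block. All classes shared an estimate of the spread, from 45 sums of 4 libraries in CSA and 26 sums of 2 libraries in BA. Sums of the same library entered as separate observations, so the small p-values below do not measure the spread between libraries. A gene was called when its Benjamini-Hochberg adjusted p was under 0.05 and its log2 fold change at least 1.3 in size. In CSA, 7 of the 9 genes were called higher, against 19% of all genes called in either direction. The adjusted p was 1.12e-35 for Acvrl1, 8.68e-36 for Eng, 1.12e-27 for Bmpr2, 6.13e-36 for Id1, 4.42e-28 for Id3, 2.57e-12 for Smad6 and 6.32e-09 for Acvr1. The same 7 genes were called higher in BA, against 20.7% of all genes, with adjusted p from 1.67e-37 for Eng to 3.84e-06 for Acvr1. The test takes the mean over classes on a log scale, where classes at 0 weigh heavily, and Id3 and Acvr1 were called although other classes held more. For the same reason no fold is given for single genes. The low Bmpr1a level could not be called by edgeR (adjusted p of 1 in both preparations), while DESeq2 called it lower in CSA (adjusted p = 4.41e-05) and in BA (adjusted p = 4.21e-06). DESeq2 also called Chrdl1 lower in BA endothelial-like cells (adjusted p = 0.0211).

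Of the 46 other genes of the BMP pathway in the files, 33 were tested in this comparison in CSA and 16 were called higher, and in BA 19 of 37 were. Among those called higher, 5 in CSA and 4 in BA had a lower mean CPM than the other classes, so the counts overstate the endothelial level. The list's median log2 fold change, from the same fit and with the same weight on classes at 0, was 1.39 in CSA and 1.67 in BA, beside 0.22 and 0.23 over all genes tested.

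Kinds of endothelial-like cell differed in Smad6, Eng and Id1. Endothelial-like clusters led by arterial markers and by markers of the blood-brain barrier were compared. In BA libraries, so was a cluster led by markers of a set that includes Plvap, the protein of the diaphragms in leaky vessels. The Plvap-set name needed at least 3 leading markers of the set, here with Selp, Vwf and Sele among the leading genes, and Plvap itself in at least 50% of cells, a condition added after seeing the clusters. A CSA cluster of 259 cells had 3 leading markers of the set and did not meet the second condition. Smad6 read 193, 164 and 144 CPM in the arterial-like cells of CSA libraries 1, 2 and 4, and 54.8 and 55.9 CPM in those of BA libraries 1 and 2. In barrier-like cells of the 6 libraries it read between 0 and 32.1 CPM. Every arterial-like library lay above every barrier-like one, and the log2 fold change was 2.92 ± 0.32 (SE; adjusted p = 4.69e-05), a 7.59-fold difference. It was the 1 member called of 7 tested, where 8.16% of all genes were called. CSA library 3 had too few arterial-like cells to enter.

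Neither Eng nor Id1 was called between arterial-like and barrier-like cells, although Eng passed the p limit, with a log2 fold change of 0.62 (adjusted p = 0.0344). Without BA library 1 Acvr1 was called as well, at a log2 fold change of 1.35 (adjusted p = 0.0391). Of 23 other pathway genes tested, 5 rose in arterial-like cells and 1 fell. Tmem100, an endothelial gene known as a target of ALK1, averaged 308 CPM in arterial-like against 13.6 CPM in barrier-like cells, a log2 fold change of 4.31 (adjusted p = 5.35e-07). The ligand Bmp4 averaged 114 against 14.5 CPM (adjusted p = 0.0405), and the transcription factor genes Msx1 and Hey1 were also higher. The co-receptor Tgfbr3 fell by 1.31 on the log2 scale (adjusted p = 0.00265).

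Plvap-set cells of BA libraries 1 and 2 held 1108 and 1043 CPM of Eng, against 429 and 452 CPM in barrier-like cells of the same libraries. Id1 ran the other way, at 184 and 262 CPM against 1154 and 893 CPM. Smad6 read 93.5 and 53.7 CPM against 9.43 and 9.43 CPM. All 3 differences exceeded the spread between libraries. The log2 fold changes were 1.41 ± 0.21 for Eng (SE; adjusted p = 3.58e-10), -2.04 ± 0.22 for Id1 (adjusted p = 8.06e-18) and 2.998 ± 0.45 for Smad6 (adjusted p = 1.27e-09). Acvr1 was called too, at 62.3 and 44.7 CPM against 32.1 and 15.7 CPM, a log2 fold change of 1.34. Its fold stayed close and its call was lost with DESeq2 (1.36, adjusted p = 0.851), without the library block (1.27, adjusted p = 0.0751), with upper-quartile normalization (1.28) and without doublet removal (1.24), the last 2 under the fold limit. With 4 of 7 members called, where 9.17% of all genes were, this comparison rested on 2 libraries and 90 Plvap-set cells, which leaves 1 residual degree of freedom.

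The remaining BA endothelial-like cells formed a cluster led by Gpihbp1 and Btnl9, with Plvap also among its leading genes against all other BA cells. They held 1079 and 1217 CPM of Eng and 469 and 654 CPM of Id1. The CSA cluster with 3 leading markers of the Plvap set held 259 to 517 CPM of Eng and 889 to 1622 CPM of Id1.

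**Figure D4:**
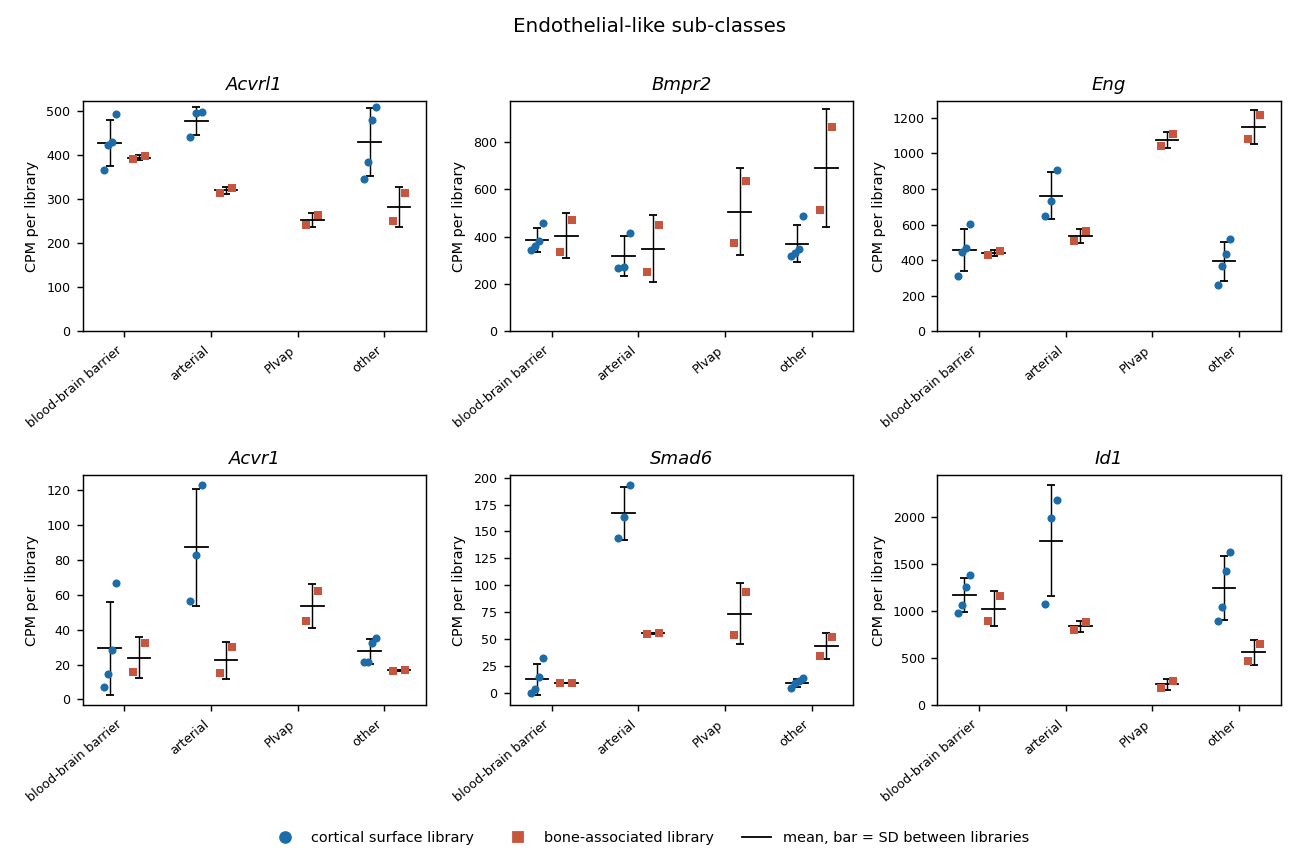
Level (CPM) of Acvrl1, Bmpr2, Eng, Acvr1, Smad6 and Id1 in the endothelial-like sub-classes of each library, with a point for each library and the mean with its SD. Smad6 is highest in CSA arterial-like cells at 144 to 193 CPM, and Plvap-set cells combine the low Id1 of 184 and 262 CPM with Eng above 1000 CPM.

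No member was called between CSA and BA endothelial-like cells as whole classes by edgeR or DESeq2 (0 of 7 tested, where edgeR called 6.22% of all genes). By edgeR, 4 members had an unadjusted p under 0.05 and 2 an adjusted p under 0.05. Eng was lower in CSA by a log2 fold change of -0.82 ± 0.21 (SE; adjusted p = 0.0102), and Id1 was higher by 0.85 ± 0.22 (adjusted p = 0.0102), with no overlap between the libraries of either side. The make-up of the class differed, since Plvap-set cells were 90 of the 596 BA endothelial-like cells and no CSA cluster was given that name. A further 232 BA cells were in the cluster led by Gpihbp1 and Btnl9. Their mean Eng level was 1148 CPM, beside 1075 CPM in Plvap-set cells. Within barrier-like cells alone, Eng differed by -0.04 (adjusted p = 0.982) and Id1 by 0.09 (adjusted p = 0.957). Within arterial-like cells alone Smad6, at -0.23 in the whole class (adjusted p = 0.616), was called higher in CSA, with a log2 fold change of 1.54 (adjusted p = 0.00108). Acvr1 was called higher there too, at 1.83 (adjusted p = 0.00512). In the same cells Id1 differed by 1.04 (adjusted p = 0.0237) and Eng by 0.49 (adjusted p = 0.390), and these splits were chosen after seeing the data. Of 23 other pathway genes, 4 were lower in CSA endothelial-like cells (Bmp6, Atoh8, Crim1 and Fstl1).

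Mesenchymal-like cells are named leptomeningeal or dural here by their preparation, CSA or BA. The BA cluster of 91 cells had Apod, Dcn and Lum among its leading genes, as the CSA cluster did, beside Aldh1a2 and Smoc2. It held 166 CPM of Id1, against 334 CPM in the BA cluster of 190 cells. Leptomeningeal and dural cells so named differed past the limits in 1 of the 5 receptor and co-receptor genes, Acvr1. Bmpr1a differed by a log2 fold change of -0.65 ± 0.30 (SE; adjusted p = 0.165), Bmpr2 by -0.67 (adjusted p = 0.175), Eng by -0.27 (adjusted p = 0.683) and Acvrl1 by -0.996 (adjusted p = 0.0704). In all, 3 of 9 members were called, each lower in the leptomeninges, where 13.9% of all genes were called in either direction. The members' median log2 fold change was -0.996, beside -0.03 over all genes.

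Chrdl1 gave the clearest difference (adjusted p = 2.40e-08), with the level in the summed dural counts 288 times that in the leptomeningeal ones and a 95% counting interval of 79.5 to 2381. Acvr1 was lower in the leptomeninges, at a log2 fold change of -1.39 ± 0.39 (adjusted p = 0.0158), with 21.6, 25.6, 26.4 and 0 CPM against 71.6 and 48.1 CPM. In the 30 cells of CSA library 4, 3 counts stood for 19.6 CPM. The Acvr1 call was lost without CSA library 4 (-1.21, adjusted p = 0.0153, under the fold limit) and without BA library 1 (-1.18, adjusted p = 0.101). Id1 was lower too, at -1.67 ± 0.47 (adjusted p = 0.0164), and its call was lost with DESeq2 (-1.46, adjusted p = 0.495) and without BA library 2 (-1.32, adjusted p = 0.203), while CSA libraries 1 and 2 alone gave -2.25 (adjusted p = 2.65e-05). Smad6 missed the limits at -1.18 ± 0.41 (adjusted p = 0.0537), and Id3 differed by -0.50 (adjusted p = 0.271). The summed level of 9 VSMC markers in these mesenchymal-like cells moved with the preparation, at 58.7 to 342 CPM in CSA and 701 and 955 CPM in BA libraries. The 11 endothelial markers ran the other way, at 176 to 207 CPM in CSA and 61.9 and 128 CPM in BA libraries. The 6 pericyte markers overlapped, at 79.2 to 169 CPM in CSA and 66.3 and 92.3 CPM in BA. VSMC-like, endothelial-like and pericyte-like cells all hold Id1, and the part of stray RNA in the Id1 value was not tested.

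Of 36 other pathway genes tested, 6 were called higher on the leptomeningeal side and 9 on the dural side, with a median log2 fold change of -0.04 beside -0.03 over all genes. Among the ligands, 4 of 5 tested were higher in the leptomeninges. Bmp6 averaged 442 against 9.72 CPM, a log2 fold change of 5.25 ± 0.40 (adjusted p = 1.75e-08), and Bmp7 averaged 182 against 6.87 CPM (adjusted p = 1.41e-07). Bmp2 averaged 175 against 6.20 CPM (adjusted p = 8.03e-08) and Bmp4 99.2 against 23.3 CPM (adjusted p = 9.81e-05). Among the secreted antagonists, 4 of 11 tested were higher in the dura. Nog, which encodes noggin, was at 0 in all CSA mesenchymal-like libraries and averaged 49.2 CPM in BA, at least 36.0-fold higher in the dural counts. Fst, encoding follistatin, was likewise at 0 and at least 23.8-fold higher. These bounds use a floor of 3 counts over the group. Among the response genes, 5 of 7 were lower in the leptomeninges, Id2 averaging 114 against 1048 CPM (adjusted p = 5.39e-08). The plot of leptomeningeal and dural levels sets the ligands and antagonists side by side.

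**Figure D5:**
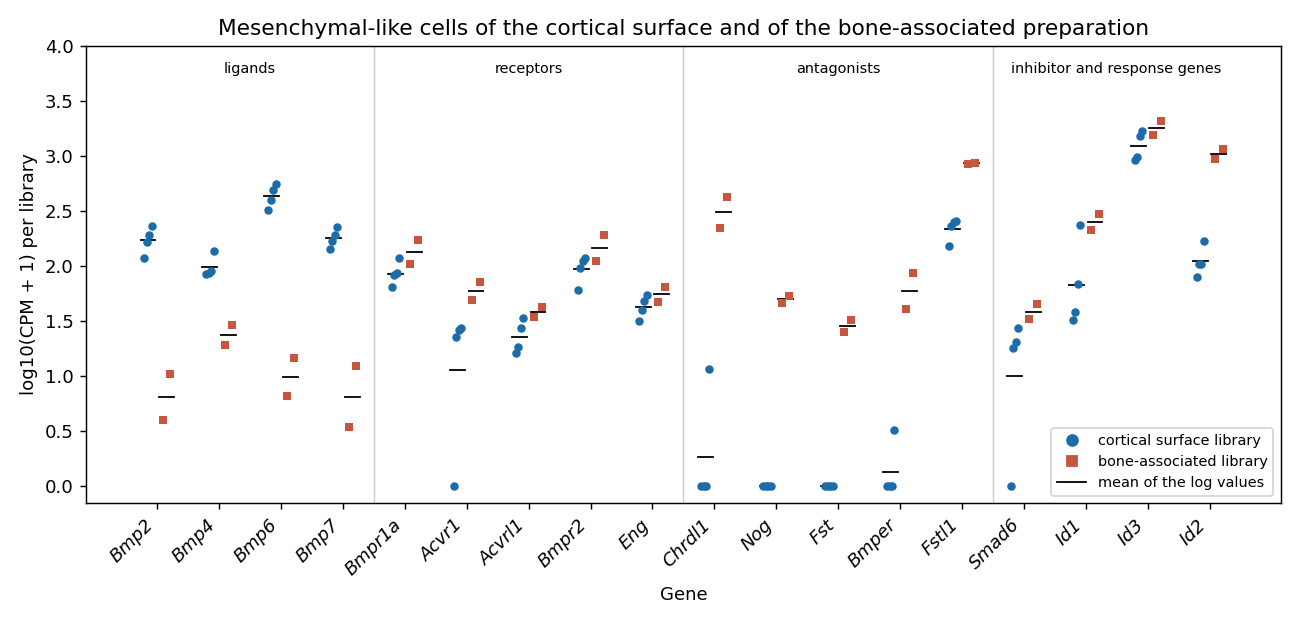
Level on a log10(CPM + 1) scale of 18 BMP pathway genes in leptomeningeal (CSA, 4 libraries) and dural (BA, 2 libraries) mesenchymal-like cells, with a point for each library. Bmp2, Bmp6 and Bmp7 are higher in every CSA library, and Chrdl1, Nog and Fst in both BA libraries.

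The gap between mesenchymal-like and endothelial-like cells was itself called different between the preparations for 3 of the 9 genes, where 9.63% of all genes were called. This interaction was -2.68 ± 0.44 on the log2 scale for Id1 (SE; adjusted p = 5.81e-05), -1.93 ± 0.41 for Acvr1 (adjusted p = 0.00143) and -1.52 ± 0.35 for Acvrl1 (adjusted p = 0.00283). For Id1, the mesenchymal-like level lay below the endothelial-like level by 2.25 to 5.21 log2 units in each CSA library and by 1.19 and 1.73 in the BA libraries. Chrdl1 was not called, although its gap was 0, 0, 3.53 and 0 log2 units in CSA and 8.74 and 7.13 in BA libraries. Its endothelial-like level was 0 in CSA and at most 0.595 CPM in BA libraries, too low for the test to decide. The Acvrl1 call was lost without CSA library 2 (-1.22, adjusted p = 0.0736) and without BA library 2 (-1.11, adjusted p = 0.316). Of 36 other pathway genes tested, 6 were called with a positive and 4 with a negative interaction. Leaving out BA library 2 reduced the calls over all genes from 973 to 474.

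Leptomeningeal mesenchymal-like cells were set against border macrophage-like cells, their neighbours at the cortical surface, within the CSA libraries. They held more Id3, by a log2 fold change of 4.75 ± 0.39 (SE; adjusted p = 9.29e-06), and more Id1, by 3.95 ± 0.40 (adjusted p = 2.59e-05). Bmpr1a was higher by 1.60 ± 0.23 (adjusted p = 0.000221), with 63.3 to 117 CPM against 18.3 to 27.0 CPM, and Eng by 1.63 ± 0.25 (adjusted p = 0.000397). Smad6 was also called, by 2.33 (adjusted p = 0.00182). Bmpr2 was not, at -0.33 (adjusted p = 0.245). In this comparison 5 of 8 members were called, all higher in mesenchymal-like cells, where 34.2% of all genes were called in either direction. Of 26 other pathway genes, 15 were higher in the mesenchymal-like cells, with Bmp6 at 442 against 10.2 CPM.

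Border macrophage-like cells held less Eng and Acvr1 than microglia-like cells of the same CSA libraries. Eng read 9.8 to 18.3 CPM against 77.0 to 107 CPM, a log2 fold change of -2.73 ± 0.21 (SE; adjusted p = 4.02e-09). Acvr1 was lower too, at -2.15 ± 0.27 (adjusted p = 2.14e-06). Id3 was higher by 3.07 ± 0.41 (adjusted p = 5.84e-06), beside the mesenchymal markers given above. Bmpr2 and Bmpr1a differed by -0.30 (adjusted p = 0.0903) and 0.06 (adjusted p = 0.864). The 3 members called of 6 tested stood beside 16.6% of all genes. Of 13 other pathway genes, 2 were higher and 3 lower in border macrophage-like cells. The ligand Bmp2 averaged 270 against 2.19 CPM, a log2 fold change of 7.24 ± 0.29 (adjusted p = 3.42e-13), and Smad7, the other inhibitory SMAD, averaged 10.7 against 445 CPM, a change of -5.14 (adjusted p = 4.36e-14). Bmp2 was among the leading genes of the cluster led by Ccl7 and Ccl2, which had 137, 172, 4 and 10 cells in CSA libraries 1 to 4. In the summed CSA counts of border macrophage-like cells it read 359 CPM.

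Pericyte-like cells held more Acvrl1 and Eng than VSMC-like cells, by log2 fold changes of 1.99 ± 0.29 (SE; adjusted p = 0.000139) and 2.08 ± 0.22 (adjusted p = 8.38e-06). The summed level of 11 endothelial markers was 449 to 1402 CPM in pericyte-like and 182 to 262 CPM in VSMC-like cells, and their part in these values was not tested. Bmpr1a was lower in pericyte-like cells, at -0.94 (adjusted p = 0.00303), as was Id1 at -0.86 (adjusted p = 0.0315), both under the fold limit. Thus 2 of 8 members were called, where 15.8% of all genes were. Of 31 other pathway genes, 2 were higher in pericyte-like cells, Bmp5 at 125 against 5.66 CPM and Fst, which had no UMI in VSMC-like cells. The 11 that were lower included Bmp2 at 22.2 against 101 CPM and Msx1 at 22.04 against 107 CPM.

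The genes whose pattern over classes was most like each member's were found by Pearson's r of log2(mean CPM + 1) over 28 class and preparation points, which share libraries and are not independent. For Bmpr1a they were Olfml2b (0.852), Gpr27 (0.838) and Arhgef25 (0.824), and for Acvr1 they were Dip2a (0.903), Lrrc41 (0.880) and Cdc42bpb (0.868). Acvrl1 was closest to Itpripl2 (0.845), Adam15 (0.838) and Ifitm3 (0.811), Bmpr2 to Scamp1 (0.907), Pttg1ip (0.874) and Mib1 (0.868), and Eng to Il6st (0.892), 4931406P16Rik (0.886) and Eogt (0.881). Chrdl1 was closest to Srpx (0.896), Col14a1 (0.880) and Adamts2 (0.868). Among the response genes, Smad6 was closest to Mtmr11 (0.897), Rhoj (0.890) and Tcf7l1 (0.885), Id1 to Eml1 (0.898) and Tgfb2 (0.892), and Id3 to Yap1 (0.931), Serpinh1 (0.921) and Syde1 (0.916). Between members, r was highest for Acvr1 and Bmpr2 (0.858), followed by Smad6 and Id3 (0.794) and Id1 and Id3 (0.763), and was 0.154 for Bmpr1a and Acvrl1.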

How the data were processed

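The authors deposited raw UMI counts per gene and barcode for 6 10x 3′ libraries aligned to mm10 with Cell Ranger, given as version 3 in the submitters' processing notes and 6.1.2 in the matrix headers. These counts were used as deposited. The labels describe a papain dissociation with sorting, and the study's methods collagenase D and dispase II. Barcodes under 500 genes or over 10% mitochondrial UMIs were dropped, 124 likely doublets were removed by comparison with simulated ones, and cells were clustered by Leiden (leidenalg 0.10.2, resolution 1.5) on 2000 variable genes without members or pathway genes. A class was named where at least 3 of its markers led. Each endothelial-like cluster was given a sub-class name likewise, against the other endothelial-like cells and without further clustering. Plvap in at least 50% of cells was a further condition for the Plvap set. Counts were summed per library and class of at least 10 cells. CPM excludes hemoglobin genes. As 3′ tags do not scale with length, levels were not ranked between genes.

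Tests used edgeR 4.0.16 (TMM, quasi-likelihood, Benjamini-Hochberg adjustment) on genes that over 10% of the cells in at least 1 group held, with a library block where classes of the same libraries were compared. DESeq2 1.42.0, upper-quartile normalization, other filters, other clustering, thinning and leaving out libraries were alternatives. Simulated counts, with the same dispersion for all genes, were used to check 4 comparisons. Of changes of 2 on the log2 scale, 78.5% were recovered for leptomeninges against dura and 87.5% for CSA endothelial-like against other classes. The shares were 99% for border macrophages against microglia and 78.5% for the interaction. The other comparisons, that of Plvap-set cells among them, were not checked in this way. Named genes were the 9 members, up to 4 called genes per role of the pathway list by size of change, and the 3 genes nearest each member in pattern. Members and lists were chosen with earlier results of these data known. Sequences and positions came from RefSeq and GENCODE tables on GRCm38. All intervals (95%, exact) and floors (3 counts) cover counting error only. Results for some genes are not reported here.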

Additional observations from a re-analysis of the deposited data

Results flagged for a closer look

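In 8 of 81 groups of 4 CSA libraries, 1 library lay far from the other 3. A group read in 1 library alone is flagged at any level, so the rule's chance rate of about 1 in 20 does not apply to it. The number flagged can therefore not be set against that rate. The flagged groups were Acvrl1 in border macrophage-like cells of library 1, low at 10.2 CPM, and Eng in dendritic-like cells of library 3, high at 16.9 CPM, and those below. Chrdl1 was read in border macrophage-like cells of library 2 alone, at 0.370 CPM, and in mesenchymal-like cells of library 3 alone, at 10.6 CPM. Smad6 was at 0 CPM in border macrophage-like cells of library 4, was read in T or NK-like cells of library 1 alone at 7.42 CPM, and in dendritic-like cells of library 4 alone at 0.814 CPM. Id1 was read in T or NK-like cells of library 4 alone, at 0.505 CPM. Most of these are a few UMIs.

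The gap between mesenchymal-like and endothelial-like cells differed between the preparations by an interaction test, by -2.68 on the log2 scale for Id1, -1.93 for Acvr1 and -1.52 for Acvrl1. For Acvr1, the CSA libraries themselves spread from -4.77 to 0.61, the lowest being library 4, where no mesenchymal-like cell had an Acvr1 UMI. That library held 30 mesenchymal-like cells, in which 3 counts stood for 19.6 CPM, so the size of its gap rests on a count of 0.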

How the results depend on the processing

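Of 1114 alternative values for single members, 1084 kept their direction and side of the threshold, 12 lost a call, 17 gained one and 1 reversed, namely Smad6 between the preparations in arterial-like cells alone (1.54). The cause of these shifts was not tested except where fewer UMIs or no fold limit made them. Members called kept their count in 137 of 146 alternatives. Thinning to 1500 UMIs a cell left 2 members called of 3 tested between leptomeningeal and border macrophage-like cells, 1 of 2 between border macrophages and microglia, 1 of 5 between pericytes and VSMC and 2 of 5 between Plvap-set and barrier-like cells. It left 553 genes called between leptomeninges and dura, 259 between endothelial preparations, 1389 (CSA) and 1292 (BA) for endothelial against other classes, 1288, 620, 705 and 249 in the 4 comparisons just named, and 267 between arterial-like and barrier-like cells. It moved Acvrl1 in CSA endothelial-like cells to 505 CPM and Smad6 in BA Ccl19-led cells to 12.2 CPM. Without a fold limit, members called were 2 between endothelial preparations, 5 between pericytes and VSMC and 2 between arterial-like and barrier-like cells, and all genes called were 1042, 2198 and 1013. The counts were 4356 (CSA) and 4375 (BA) for endothelial against other classes, 4661 for leptomeningeal against border macrophage-like cells, 3607 for border macrophages against microglia and 1284 for Plvap-set against barrier-like cells. With no gene filter, 903 genes were called between endothelial preparations and 2187 between border macrophages and microglia, and DESeq2 called 270 between Plvap-set and barrier-like cells. Within barrier-like cells 157 genes, and within arterial-like cells 2 members, were called between preparations.

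Leaving out single libraries gave 2 to 3 members and 969 to 1373 genes for leptomeninges against dura, 1 to 2 members and 528 to 641 genes for arterial-like against barrier-like cells, and 2 to 4 members and 474 to 956 genes for the interaction. Leaving out a BA library in the BA endothelial and Plvap comparisons was not run, since 1 library leaves no residual degrees of freedom. The preparations share the numbers 1 and 2, which no label ties to a shared batch. The correlations of same-numbered deviations were 0.08 and 0.15 in mesenchymal-like and 0.22 and 0.12 in endothelial-like cells. With that number as a replicate block, 2 members and 1436 genes were called between leptomeninges and dura (Acvr1 fell by 1.20, under the fold limit) and 0 and 457 between endothelial preparations. Without the library block elsewhere, counts stayed within 1.5 times. With CSA libraries 1 and 2 only, chosen after seeing the data, Acvr1 fell by 1.25 between leptomeninges and dura. Depth limits shares of cells and how many genes can be tested.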
